A study of Mus musculus with 2 samples.

Results

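Chemokine receptors are G protein-coupled receptors that let leukocytes sense gradients of chemokines and move to or stay in a tissue compartment. In Peyer's patches, which are aggregates of lymphoid follicles in the gut wall, Cxcr5 and Ccr7 are known to place lymphocytes in the B cell follicle and the T cell zone, Ccr6 draws cells toward the epithelium that covers the dome, Ccr9 and Cxcr6 mark lymphocytes of the gut wall, and Ccr2 and Cx3cr1 mark monocytes and the phagocytes that derive from them. The 9 genes described here, Ccr1, Ccr2, Ccr6, Ccr7, Ccr9, Cxcr4, Cxcr5, Cxcr6 and Cx3cr1, were taken by name from the array's annotation, out of 24813 named genes, and they are represented by 14 probes, all of them non-control spots present on both arrays. Of the 9 genes, 5 had 2 probes and 4 had 1 probe.

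The arrays compared cells that were positive or negative for an S100A4 reporter, a green fluorescent protein carried as a transgene by C57BL/6 mice; both fractions came from the same kind of reporter mouse, and neither the promoter of the transgene nor the age, number and pooling of the mice is given in the sources used here. Small-intestinal Peyer's patches were digested with dispase II, collagenase D and DNase I, and the released cells were sorted by flow cytometry. Just 1 sample per fraction gave Cy3-labelled RNA for a 1-colour array of its own, so there was no replicate of either group, no test was possible, and every value below compares these arrays, not the conditions. Levels are processed signals in arbitrary intensity units, and differences are S100A4-positive minus S100A4-negative on the log2 scale once the 75th percentile of each array had been set to 0. The error given after ± is the scanner software's error for the spots and does not cover variation among animals, sorting runs or labellings.

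The share of the 59305 non-control spots that exceeded background clearly, by the scanner software's flag, was 53.3% for the negative and 52.3% for the positive sample. The S100a4 probe read 1057 in the negative and 119341 in the positive sample, a log2 difference of 7.45 ± 0.20. All 5 general leukocyte genes examined (Ptprc, Coro1a, Lcp1, Cd53 and Laptm5) were within 2-fold, with differences from -0.60 to 0.24. Another probe of Lcp1, however, gave 2.20 and another of Ptprc 0.85. On the scale of the spike-in controls, which shifts every gene by -2.44, all 5 were past 2-fold downward. For the counts below, 21.4% of all genes were past 2-fold upward and 17.0% downward. These shares were 4.06% and 82.5% on the spike-in scale, and 12.9% and 35.0% with no scaling between arrays. Epithelial genes were also seen, mostly in the negative sample: 8 of 10 were past 2-fold downward. Krt8, a keratin of simple epithelium, read 3981 and 258. The summed levels of this list, in units of each array's 75th percentile, were 45.4 and 3.23. A summed level is carried mostly by the brightest probes of its list. Of 5 endothelial genes 4 were past 2-fold upward, with summed levels of 0.623 and 3.54 (3 up and 1 down on the spike-in scale). Of 6 stromal genes 3 were past it upward and 1 downward, with summed levels of 0.981 and 2.53, but 1 was up and 4 were down on the spike-in scale, and 1 up and 3 down with no scaling between arrays. Of 6 plasma cell genes 2 were up and 3 down, but 0 up and 5 down on the spike-in scale and 0 up and 3 down with no scaling. Of 6 neutrophil genes 2 were up and 3 down, but 0 up and 4 down on the spike-in scale. Of 4 mast cell and basophil genes 2 were up and 2 down, and on the spike-in scale 1 was up and 3 were down. In such bulk samples fewer cells of a type and less RNA per cell cannot be told apart.

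Of the 9 receptor genes, 8 were well above background on both arrays, and Ccr1 on neither. Cx3cr1, Ccr2, Cxcr6 and Ccr9 were between 14.3-fold and 47.6-fold higher in the S100A4-positive sample, Cxcr5 was 8.02-fold lower, and Ccr7, Cxcr4 and Ccr6 were within 2-fold at the probe used. Thus 4 of 8 passed 2-fold upward, as did 21.4% of the 15245 genes compared, and 1 of 8 passed it downward, as did 17.0%. The same 4 and 1 were past 4-fold, against 9.88% and 4.99% of all genes. The median difference of the 8 was 1.86, beside 0.01 over all genes, and it lies in the gap between Ccr9 and Ccr7. Each of the 8 differences kept its sign under all 10 other ways of processing that were run. The median over the 8, however, was -0.58 when arrays were scaled on the spike-in controls. For Ccr2, Ccr6 and Cxcr5, with 1 probe each, the choices of filter and of probe could not change the value. Scalings that shift all genes downward could not raise a negative difference.

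**Figure D1:**
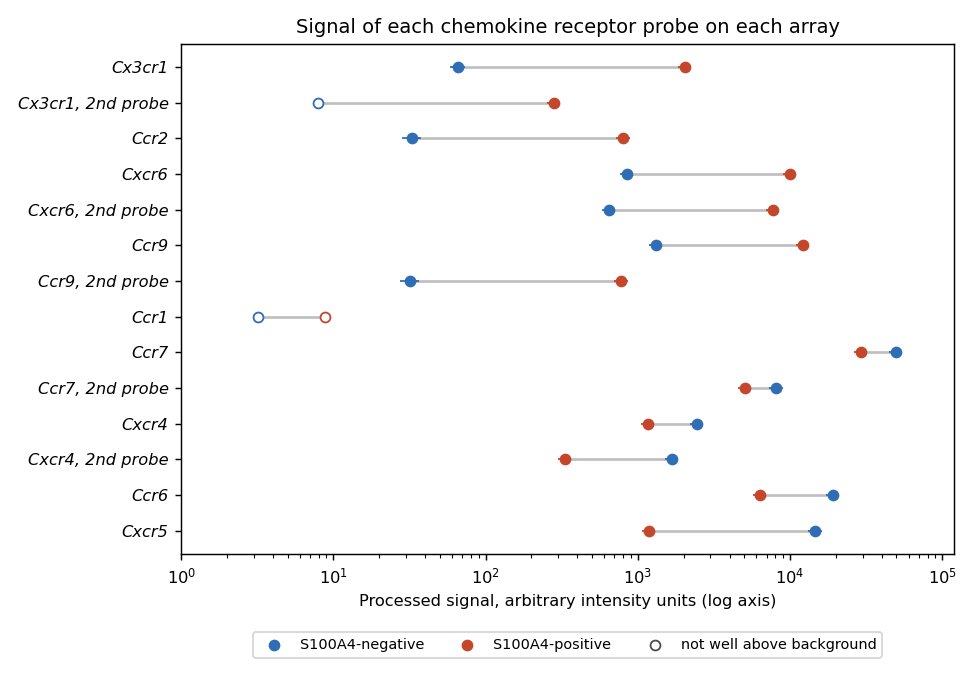
Processed signal of each of the 14 probes (log axis, arbitrary intensity units) in the S100A4-negative sample (blue) and the S100A4-positive sample (red); bars are the scanner software's error, open circles are spots not well above background and carry no bar. The positive array is brighter for Cx3cr1, Ccr2, Cxcr6 and Ccr9, the negative array is brighter for Ccr7, Cxcr4, Ccr6 and Cxcr5 before centring, and Ccr1 is near the floor on both.

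Receptors of monocytes and their progeny stood at the top. Cx3cr1, the receptor for fractalkine, read 66.1 ± 7.65 in the negative sample and 2027 ± 203 in the positive sample at the probe used (mm9 chr9:119957811-119957870, minus strand; all probe positions are on mm9, and exons and UTRs were not analysed here), a log2 difference of 5.57 ± 0.22. Only 0.834% of the genes measured on both arrays had a larger difference. Its other probe, 1207 bases away at chr9:119959018-119959077, read 281 in the positive sample and was not well above background in the negative sample, which makes it at least 27.0-fold higher in the former. Both Cx3cr1 probes were therefore brighter in the positive sample.

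Ccr2, the receptor through which monocytes leave the bone marrow, read 32.7 ± 4.66 in the negative sample and 802 ± 80.3 in the positive sample (chr9:124022948-124023007, plus strand). The difference was 5.25 ± 0.25, or 38.0-fold, and 1.04% of genes had a larger one. The signals of Cx3cr1 and Ccr2 in the negative sample were low, the lowest one well above background there being 16.1, and with normexp background correction, which compresses low signals, their differences were 4.40 and 3.65. Ccr1, a receptor for inflammatory CC chemokines on myeloid cells, read 3.18 and 8.76 at its only probe (chr9:123877790-123877849), not well above background on either array, so no fold is given.

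Genes of phagocytes were also brighter in the positive sample. Past 2-fold upward were 11 of 12 monocyte and macrophage genes, with no gene past it downward, a median of 5.51 and summed levels of 41.4 and 756. On the spike-in scale 9 were up and 1 was down. C1qa, which encodes a chain of the complement component C1q, was at 7.13, C1qc at 7.12, C1qb at 7.06 and Csf1r, the receptor for the growth factor CSF1, at 6.36, while Csf1r's other probe gave 1.54. For classical dendritic cells it was 9 of 10 upward and none downward, with a median of 4.54 and summed levels of 52.1 and 183, and 8 upward and 1 downward on the spike-in scale. Clec10a was at least 261-fold, Cd209a at least 224-fold and Clec9a at least 211-fold higher, none of them well above background in the negative sample, and Batf3 was at 5.96. The part of these cell types in the receptor values was not tested.

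Receptors of tissue lymphocytes came next. Cxcr6, the receptor for the membrane-bound chemokine CXCL16, read 846 ± 84.7 in the negative sample and 9924 ± 992 in the positive sample (chr9:123720719-123720778), a difference of 4.19 ± 0.20. Its other probe, 114 bases away at chr9:123720605-123720664, read 648 and 7679, a difference of 4.20 ± 0.20. The probes of Cxcr6 differed by 0.01, far under their combined error of 0.29.

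Ccr9, the receptor for the small-intestinal chemokine CCL25, read 1310 ± 131 in the negative sample and 12074 ± 1207 in the positive sample (chr9:123690334-123690393), a difference of 3.84 ± 0.20. Its other probe is annotated to a separate cDNA record and lies 9399 bases upstream at chr9:123680935-123680994. That probe read 31.9 and 778, a difference of 5.24 ± 0.25, and the gap between the probes, 1.40, exceeded their combined error of 0.32. Both Ccr9 probes were higher in the positive sample, 14.3-fold and 37.9-fold.

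Lists for cells known to carry these receptors did not all go one way. Innate lymphoid and gamma-delta T cell genes were up past 2-fold in 9 of 9 cases (7 on the spike-in scale), with a median of 4.42 and summed levels of 7.27 and 323. Among them Il23r, the IL-23 receptor, was at least 200-fold higher, Il22 was at 7.07 and Rora at 4.46. Plasmacytoid dendritic cells are also known for Ccr9, and 5 of their 7 genes were past 2-fold upward and none downward, with summed levels of 101 and 330, but on the spike-in scale 3 were up and 3 down. Cox6a2 was at 9.47 and Bst2 at 4.17, while Siglech, a surface lectin of these cells, was at 0.37 at its brightest probe and at least 154-fold higher at another. Of 5 tissue-resident lymphocyte genes only Rgs1 (2.08) was 2-fold higher, Itga1 was at least 2.47-fold lower, and the summed levels were 28.1 and 69.7, while on the spike-in scale 0 were up and 4 down. T cell genes were mostly down, 6 of 9 past 2-fold, led by Cd2 (-4.97) and Cd3e (-3.92), with Cd8b1 (2.59) up and summed levels of 158 and 63.7, and on the spike-in scale 0 were up and 8 down. The part of these cells in the Cxcr6 and Ccr9 values was not tested.

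**Figure D2:**
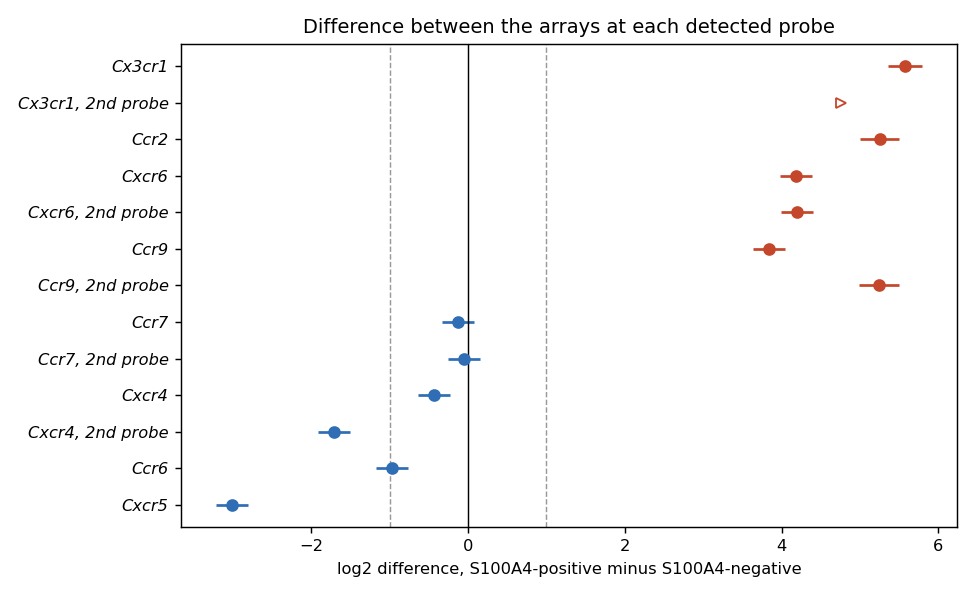
log2 difference (S100A4-positive minus S100A4-negative) at each of the 13 detected probes of 8 receptor genes, with the scanner software's error as the bar; dashed lines mark 2-fold, and the open triangle is a lower bound for a probe not well above background in the negative sample. The Cx3cr1, Ccr2, Cxcr6 and Ccr9 probes lie between 3.84 and 5.57, and the Cxcr4 probes fall on either side of the 2-fold line.

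Receptors of the follicle and of lymphocyte recirculation were at the lower end. Cxcr5, which brings B cells and follicular helper T cells to the follicle, read 14676 ± 1468 in the negative sample and 1179 ± 118 in the positive sample (chr9:44320071-44320130, minus strand), a difference of -3.00 ± 0.20. Only 1.37% of genes measured on both arrays had a lower value. Ccr6, the receptor for CCL20, read 19184 ± 1918 and 6297 ± 630 (chr17:8449933-8449992), a difference of -0.97 ± 0.20, or 1.96-fold lower. It sits at the 2-fold line, and was past it with normexp (-1.11), quantile normalization (-1.15), the deposited value table (-1.20) and no scaling between arrays (-1.61).

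Ccr7, the receptor that guides lymphocytes and mature dendritic cells into the T cell zone, was bright on both arrays. Its probe at chr11:99005551-99005610 read 49483 ± 4948 in the negative sample and 29224 ± 2922 in the positive sample, a difference of -0.13 ± 0.20. The other Ccr7 probe, which the array files place at chr11:99005513-99005538, read 8128 and 5044, a difference of -0.05 ± 0.20. Both differences are smaller than their error on this scale. Ccr7 was further below 0, by more than 0.20, with normexp (-0.32), quantile normalization (-0.40), the deposited value table (-0.49) and no scaling between arrays (-0.76).

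Cxcr4, the receptor for CXCL12, was the member whose probes disagreed about the 2-fold size. At the probe used (chr1:130485079-130485138, minus strand) it read 2437 ± 244 in the negative sample and 1161 ± 116 in the positive sample, a difference of -0.44 ± 0.20. At the other (chr1:130486114-130486173), which lies 1035 bases nearer the gene's 5′ end, it read 1672 ± 167 and 330 ± 33.2, a difference of -1.71 ± 0.20, or 3.27-fold lower. The gap of 1.27 exceeded the combined error of 0.29, and with the median over both probes Cxcr4 was at -1.07. The 60 bases of that disagreeing probe, written 5′ to 3′, shared at most 14 bases in a row with a probe of any other gene on the array.
Cxcr4 probe: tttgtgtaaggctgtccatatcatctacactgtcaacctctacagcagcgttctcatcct

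B lymphocytes carry all 4 of these receptors, and the median difference of their genes was more negative than that of any of the 4. The B cell list was down past 2-fold in 10 of 10 cases, with a median of -5.55 and summed levels of 480 in the negative and 21.2 in the positive sample. Pax5, the B lineage factor, was not well above background in the positive sample and was at least 102-fold lower, Fcmr was at -6.19 and the antigen receptor gene Cd79a at -6.14. Germinal centre genes were past 2-fold downward in 7 of 7 cases, with a median of -3.87 and summed levels of 49.5 and 10.3. It was 6 of 7 with the median over probes, as Bcl6 was at -1.38 at the probe used and at 0.0045 at another. Follicular helper T cell genes, a list that also holds Bcl6, were down past 2-fold in 4 of 6 cases, or 3 with the median over probes. Among them Sh2d1a was at least 33.4-fold and Il21 at least 20.8-fold lower, while Pdcd1 (1.54) was higher. The summed levels were 40.3 and 25.3, and on the spike-in scale 0 were up and 5 down.

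Naive lymphocyte homing genes were down past 2-fold in 4 of 6 cases, led by Lef1 (-4.38) and S1pr1, the receptor for exit from lymphoid tissue (-4.07). The summed levels of that list were 65.1 and 39.6. Cxcr5 at -3.00 was closer to the germinal centre median of -3.87 than were Ccr6 at -0.97, Cxcr4 at -0.44 and Ccr7 at -0.13. That median lies below all of these receptors, so the lowest of them is nearest to it by construction. The T cell median (-3.23) and the epithelial median (-3.45) were nearer to Cxcr5. The part of B and T cells in the receptor values was not tested.

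In order of difference the receptors ran Cx3cr1, Ccr2, Cxcr6, Ccr9, Ccr7, Cxcr4, Ccr6 and Cxcr5. Among neighbours, Cx3cr1 and Ccr2 differed by 0.32, less than their combined scanner error of 0.33. The other neighbours differed by more than theirs, but by little for Cxcr6 and Ccr9 (0.35 against 0.29) and for Ccr7 and Cxcr4 (0.31 against 0.29). The order also depended on probe and processing. The other Ccr9 probe would move Ccr9 level with Ccr2, and the other Cxcr4 probe (-1.71) would move Cxcr4 below Ccr6. With normexp Ccr7 (-0.32) fell below Cxcr4 (-0.30), and Cxcr6 (3.81) rose above Ccr2 (3.65). In the deposited value table, too, Ccr7 (-0.49) was below Cxcr4 (-0.39). Over these 2 arrays likeness can only mean a similar difference, and among the marker genes measured on both arrays the nearest ones included Cd14 (5.64) for Cx3cr1, Clec4a4 (4.90) for Ccr2, Bst2 (4.17) and Sirpa (4.17) for Cxcr6, and Kit (3.93) and Itgax (4.07) for Ccr9. For the others they were Icos (-0.03) and Coro1a (-0.24) for Ccr7, Col3a1 (-0.51) and Tcf7 (-0.34) for Cxcr4, Epcam (-0.91) and Foxp1 (-1.17) for Ccr6, and Vil1 (-3.11) and Krt20 (-3.11) for Cxcr5.

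**Figure D3:**
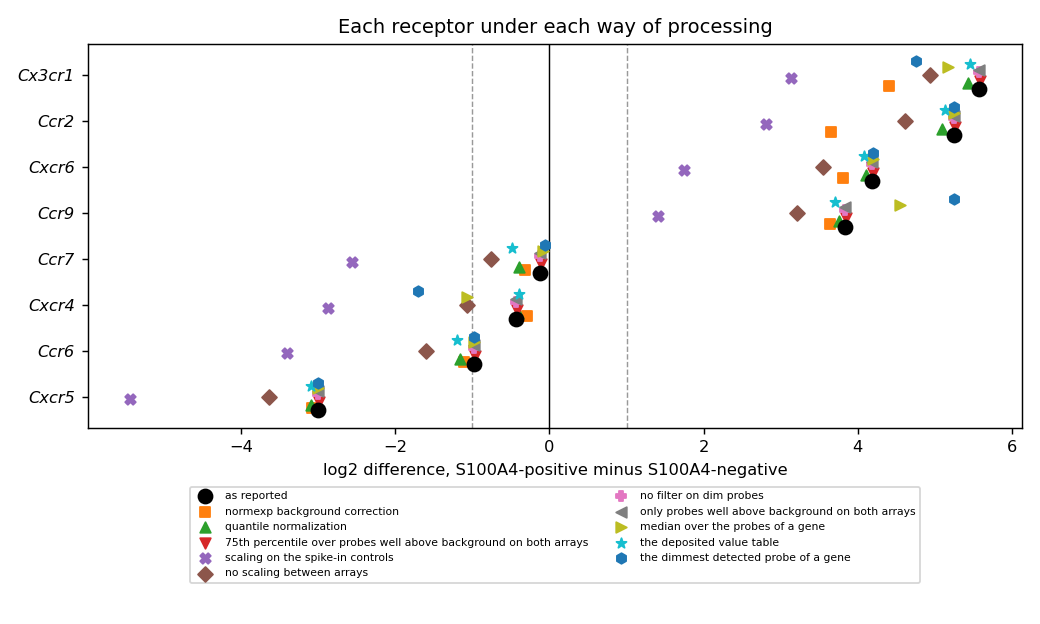
log2 difference of each of the 8 detected receptor genes (S100A4-positive minus S100A4-negative) as reported (black circle) and under 10 other ways of processing; dashed lines mark 2-fold. No receptor crosses 0, while scaling on the spike-in controls moves all of them to the left, by -2.44.

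The other chemokine receptor and receptor-like genes on the array did not share a direction. The array detected 13 of 18 in the list, 7 past 2-fold upward and 5 downward, beside 21.4% and 17.0% of all genes. On the spike-in scale 2 were higher and 7 lower, beside 4.06% and 82.5% of all genes. With normexp 4 were higher and 2 lower, beside 14.9% and 11.5%, and with quantile normalization 5 and 5, beside 18.4% and 19.5%. Only 6 were well above background on both arrays, and of these 4 were higher and 1 lower, beside 17.7% and 16.4%. Ackr3, a scavenger of CXCL12 that binds the same ligand as Cxcr4, read 92.6 and 3335, a difference of 5.81 ± 0.21. Ccrl2, a relative that binds chemerin, was at 4.18, level with Cxcr6. Gpr35, Ackr1 and Ccr8 were detected in the positive sample alone and were up by at least 5.87-fold, 2.95-fold and 2.50-fold, and Cmklr1, a chemerin receptor, was at 1.14 ± 0.38.

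Ackr4, a scavenger of the ligands of Ccr7 and Ccr9, and Ackr2, a scavenger of inflammatory CC chemokines, were at least 22.2-fold and 16.1-fold lower, not well above background in the positive sample. Ccr3 and Ccr4 were at least 3.28-fold and 2.98-fold lower, and Ccr10, a receptor of antibody-secreting cells, was at -2.23 ± 0.33. Cxcr3, the receptor of effector T cells, was within 2-fold at 0.25. Ccr1l1, Cxcr1, Cxcr2, Xcr1 and Gpr15 were well above background on neither array.

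Of the 19 ligand genes listed for the 9 receptors, 17 had a named probe, and all 17 were detected, with a median of 4.38. Past 2-fold were 13 upward and 2 downward, beside 21.4% and 17.0% of all genes. On the spike-in scale 11 were higher and 3 lower, beside 4.06% and 82.5% of all genes. Cx3cl1 and Cxcl16 are unusual among chemokines in being made as membrane-bound proteins. Cx3cl1, the Cx3cr1 ligand, read 71.0 and 5092, a difference of 6.80 ± 0.22, and was at least 2.05-fold higher at its other probe. Cxcl16, the Cxcr6 ligand, read 65.3 and 3648, a difference of 6.44 ± 0.22.

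Among 9 CC chemokines that act on Ccr1, Ccr2 or close relatives, 8 were higher. The monocyte attractant Ccl2 was at 7.06, Ccl9 at 5.84, Ccl4 at 4.49, Ccl6 at 4.02 and Ccl3 at 3.79, and Ccl7, Ccl8 and Ccl12, detected in the positive sample alone, were up by at least 56.8-fold, 31.0-fold and 20.8-fold. Ccl5 was the exception at -2.30, with signals of 38713 and 5082. Ccl25, the ligand of Ccr9, was lower on the array where its receptor was higher, at -1.96 ± 0.21, with signals of 1035 and 171.

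Of the ligands of Cxcr5, Ccr7, Cxcr4 and Ccr6, only Cxcl13 was well above background on both arrays. Cxcl13, the ligand of Cxcr5 made by follicular stroma and some phagocytes, was at 2.18 ± 0.21, opposite in sign to its receptor, but smaller than the shift between this scale and that of the spike-in controls, on which it turns negative. Ccl21a and Ccl19, the ligands of Ccr7, were at least 58.1-fold and 6.48-fold higher, neither being well above background in the negative sample; the Ccl21 genes are near-identical copies, so that value is uncertain, and Ccl21b and Ccl21c were not analysed here. Cxcl12 was detected in the positive sample alone, at a signal of 17.6, and was at least 1.69-fold higher, and Ccl20, the ligand of Ccr6, was detected in the negative sample alone and was at least 1.40-fold lower.

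**Figure D4:**
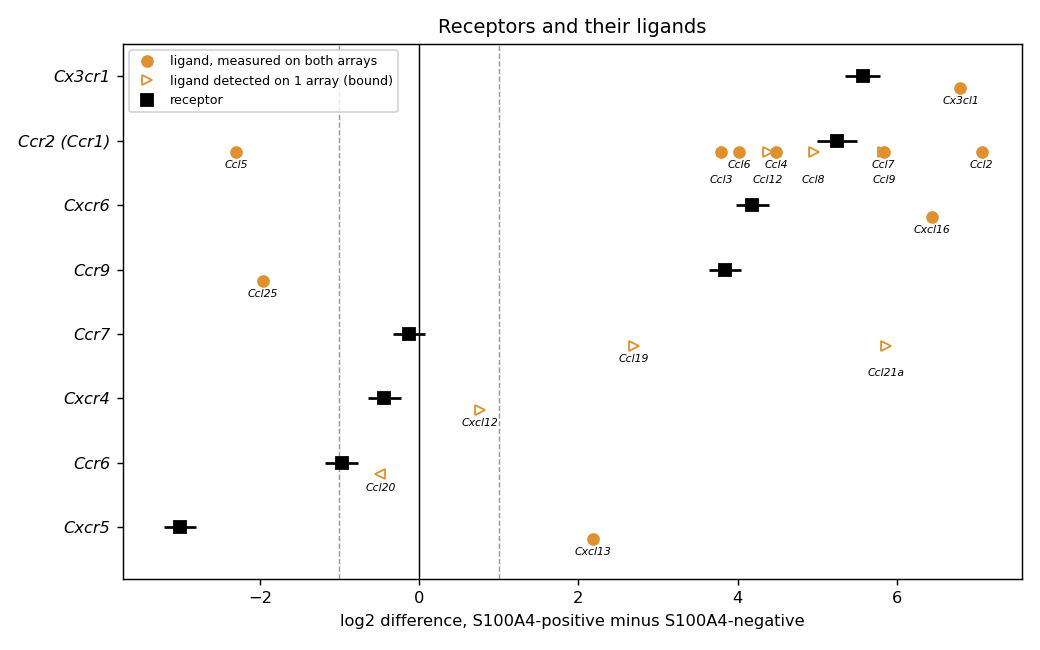
log2 difference (S100A4-positive minus S100A4-negative) of 8 receptor genes (black squares, bars are scanner software error) and, just under each, of the ligands listed for it (orange; open triangles are bounds for ligands detected on 1 array, pointing away from 0). Cx3cl1, Cxcl16, Ccl20 and the ligands under Ccr2 except Ccl5 lie on the same side of 0 as their receptors. Ccl25, Cxcl13 and Ccl5 lie on the opposite side, as do Ccl21a, Ccl19 and Cxcl12 at their bounds, whose receptors Ccr7 and Cxcr4 are within 2-fold.

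Genes that transmit or end receptor signals were counted in the same way. Of 27, all measured on both arrays, 6 passed 2-fold upward and 5 downward, near the shares over all genes (21.4% and 17.0%). The median was 0.05, although 26 were 2-fold lower on the spike-in scale, as were 82.5% of all genes. The largest difference was that of Grk3, a kinase that desensitises receptors, at 4.53 ± 0.21, with signals of 104 and 1541. Its relatives Grk6 and Grk2 were at -1.32 and -1.31, and the arrestin gene Arrb2 was at 1.32. Gnai2, the inhibitory G protein subunit to which chemokine receptors couple in leukocytes, was at 0.20.

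Several of the receptor genes lie close together on chromosome 9. The probes of 6 of the 9 genes lie there, and those of Cx3cr1, Ccr9, Cxcr6, Ccr1 and Ccr2 lie within 4065197 bases of each other. Between the outermost probes on the chromosome, from Cxcr5 to Ccr2, 22.3% of 623 genes passed 2-fold upward and 16.2% downward, near the shares of all genes. The shorter interval from Cx3cr1 to Ccr2 was chosen after the values were seen. In it 13 of 49 genes passed 2-fold upward and 8 downward.

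Of 7 chemokine receptor genes detected in that interval, 5 passed 2-fold upward (Cx3cr1, Ccr8, Ccr9, Cxcr6 and Ccr2) and 2 downward (Ackr2 and Ccr3), and of the 42 other genes 8 passed it upward and 6 downward, with a median of 0.07. The other genes past 4-fold were Tmem158 (4.40), the hormone gene Cck (-5.59), Vipr1 (-2.05) and the mitotic kinesin gene Kif15, detected in the negative sample alone and at -3.42 or below. Ccr9 and Cxcr6 have Fyco1 (1.52) and Lztfl1 (1.14) as their detected neighbours, both lower in difference than the receptors.

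**Figure D5:**
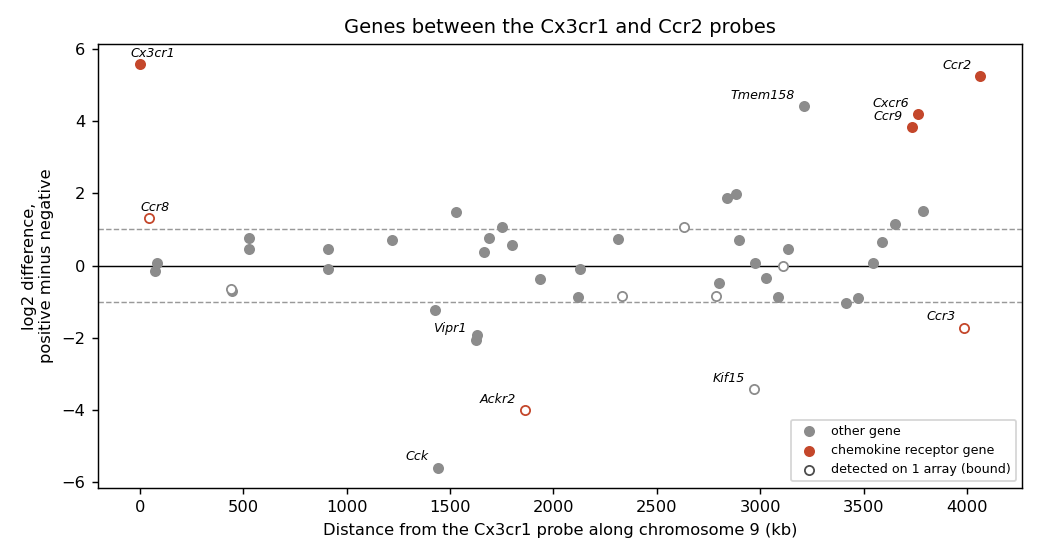
log2 difference (S100A4-positive minus S100A4-negative) of the 49 genes detected between the Cx3cr1 and Ccr2 probes, against distance from the Cx3cr1 probe in kb; red marks chemokine receptor genes, grey other genes, open circles genes detected on 1 array and plotted at their bound, and dashed lines 2-fold. Cx3cr1 at one end and Ccr9, Cxcr6 and Ccr2 at the other lie above most of the 42 other genes, and Ackr2 and Ccr3 lie below 0. The interval was chosen after the values were seen.

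RefSeq windows (GRCm38.p6) of the 250 bases upstream of the transcription start were at hand for 7 of the 9 genes, all but Ccr7 and Cxcr5. They are given for the 3 higher members with a motif match and for Ccr6, to set the DNA beside genes whose differences have opposite signs. Matches to 5 short motifs, chosen after the sequences were seen, are in capitals in these 5′ to 3′ runs: the octamer ATTTGCAT, the E-box CAGGTG, the PU.1 core GGAAGT and the Runx motif TGTGGT on both strands, and TATAAA on the sense strand.
Cx3cr1, chr9:120068297-120068546, minus strand: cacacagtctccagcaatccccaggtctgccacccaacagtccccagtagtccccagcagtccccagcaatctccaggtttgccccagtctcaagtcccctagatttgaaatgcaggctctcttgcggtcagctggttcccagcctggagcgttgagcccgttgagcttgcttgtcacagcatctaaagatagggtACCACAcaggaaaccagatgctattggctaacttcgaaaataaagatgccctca
Cxcr6, chr9:123806227-123806476, plus strand: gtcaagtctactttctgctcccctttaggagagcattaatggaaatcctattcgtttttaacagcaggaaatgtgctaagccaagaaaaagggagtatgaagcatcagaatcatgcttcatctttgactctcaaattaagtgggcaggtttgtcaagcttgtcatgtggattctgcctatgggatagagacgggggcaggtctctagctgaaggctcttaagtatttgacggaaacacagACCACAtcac
Ccr9, chr9:123766961-123767210, plus strand: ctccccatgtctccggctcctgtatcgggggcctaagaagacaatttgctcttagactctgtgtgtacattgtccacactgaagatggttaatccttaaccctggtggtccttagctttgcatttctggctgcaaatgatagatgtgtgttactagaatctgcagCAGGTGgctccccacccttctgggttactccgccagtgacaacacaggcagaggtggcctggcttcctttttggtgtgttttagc
Ccr6, chr17:8235793-8236042, plus strand: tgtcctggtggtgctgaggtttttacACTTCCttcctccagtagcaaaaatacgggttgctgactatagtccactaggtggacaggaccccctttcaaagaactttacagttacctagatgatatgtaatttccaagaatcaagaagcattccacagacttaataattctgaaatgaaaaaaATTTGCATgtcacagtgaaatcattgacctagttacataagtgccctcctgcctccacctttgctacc

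RefSeq gives Ccr6 a pair of windows, and the one not printed, at chr17:8242276-8242525, holds none of the 5 motifs. The printed Ccr6 window holds the octamer, a B cell element, 68 bases before the start, and a PU.1 core on the reverse strand at 224 bases; 1.6% of 32851 windows of the same length hold the octamer and 19.7% the PU.1 core. The Ccr9 window holds an E-box 85 bases before the start, a match found in 17.2% of windows. The Cx3cr1 and Cxcr6 windows hold a reverse-strand Runx match, found in 14% of windows, at 54 and 10 bases, as does that of the undetected Ccr1 at 58. Cxcr4 has TATAAA 30 bases before its start, found in 7.59% of windows, and the Ccr2 window has none of the 5. Such matches describe letters and were not tested as sites.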

How the data were processed

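RNA of 1 S100A4-positive and 1 S100A4-negative sample was read on 2 arrays of Agilent design 74809 lying on 1 slide. The deposited scanner tables hold processed signal intensity per spot, background-subtracted and detrended by Agilent Feature Extraction 10.7.1.1, per the file headers, while version 9.5.1.1 stands in the submitters' processing notes. The deposited value table holds linear intensities normalized between the arrays by the authors in a way not given in the sources used here, and was an alternative only. The median of either column was 19.6. Its scale is linear, it is not centred, and its log2 values correlated with the scanner signals at 0.9999 and 0.9998 across probes.

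Control and outlier spots were left out, signals were taken as log2, the 75th percentile of each array (446 on the negative, 287 on the positive) was set to 0, and replicate spots were averaged. Probes were named through RefSeq accessions (32994), symbols (10224) or synonyms (520) of a GRCm38 gene table, and 12867 stayed unnamed; probe positions are on mm9. A gene took its brightest probe that was well above background on at least 1 array. A gene dim on 1 array is given as "at least" a fold, the brighter level set against the dim probe's signal or, if higher, the lowest signal well above background on the dim array. Levels of different probes were not compared with each other. Summed levels, however, add the probes of a list within an array, so its brightest probes weigh most. As there were no replicates, no test was run; the number of arrays limits the precision. Calls were at 2-fold. As technical error, 272 probes spotted about 10 times had a median SD of 0.10 for a difference of spots.

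Alternatives were normexp (limma 3.58.1, R 4.3.3), quantile normalization, other scalings, filters and probe choices, and the deposited table; Python 3.11.15, numpy 2.4.6 and pandas 2.3.3 did the rest. The steps were tested on simulated data. The members, lists and rules were chosen with earlier results of these data known. The genes named are the members, all other receptors and ligands measured, up to 4 of each other list by size of difference with others given for comparison, the nearest marker genes, and genes past 4-fold in the chromosome 9 interval; Gnai2, Siglech, Cd8b1, Krt8, Fyco1 and Lztfl1 were named after their values were seen. Some genes the rule would name are not reported here.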

Additional observations from a re-analysis of the deposited data

How the results depend on the processing

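No alternative run changed the sign of any of the 8 detected receptors, though for some receptors certain runs could not, as stated above. The count past 2-fold upward was 4 under each, except 5 with no filter on dim probes, which lets in Ccr1. The count at least 2-fold lower, 1 as reported, was 2 with normexp, quantile normalization, the deposited value table, a median taken over probes and, an alternative chosen after seeing the data, the dimmest detected probe; it was 3 with no scaling between arrays and 4 with scaling on the spike-in controls. The added receptor was Ccr6 or, with another choice of probe, Cxcr4, with no scaling both, and on the spike-in scale both and Ccr7. The median difference over the receptors, 1.86, turned to -0.58 on the spike-in scale, where all genes shift by -2.44, and was 1.22 with no scaling (a shift of -0.63), 2.09 with no filter on dim probes and 2.07 at the dimmest probe. Quantile normalization and the deposited table each shifted all genes by -0.11. Over all genes, 3255 passed 2-fold upward and 2595 downward as reported, 619 and 12581 on the spike-in scale, and 1960 and 5336 with no scaling. Of all genes past 2-fold, 55.6% were higher as reported, 4.69% on the spike-in scale and 26.9% with no scaling, so directions hold relative to each array's 75th percentile. On the positive array the spike-in signal was 3.49-fold that on the negative array, and the input of RNA is not known here. Signal over local background, a median of 6.80 and 5.35 among detected spots, limits Ccr1, Ccr2 and Cx3cr1 most. No paired analysis was possible because each group has 1 array.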
